A study of Canis lupus familiaris with 10 samples.

Results

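The genes described here are 10 members of the B7-CD28 costimulation system and of the inhibitory checkpoints of T cells. They comprise the receptors CD28, ICOS, CTLA4, PDCD1, LAG3 and TIGIT and the ligands CD80, CD86, CD274 (the gene of PD-L1) and PDCD1LG2 (the gene of PD-L2). They were taken by name from the pathway, but with earlier results of these data known, so that the set was not chosen blind to the data. All 10 were among the 23266 gene symbols of the deposited table, and all 10 were among the 12397 genes that passed the filter on low values. The tumors were canine cutaneous histiocytomas (CCH). They are benign, derive from Langerhans cells of the epidermis and usually regress while lymphocytes enter the tumor. Archival formalin-fixed, paraffin-embedded (FFPE) tumors of 10 dogs were sequenced with QuantSeq 3′, which yields a single fragment near the end of each transcript. Levels of different genes are therefore set side by side without a correction for transcript length. How well the end of each gene is annotated can still affect such comparisons. The early group held 5 tumors of group 1 of the Cockerell and Slauson staging, and the late group held 5 tumors of its group 3, labeled as lymphocyte enriched. No treatment or genotype is labeled for any dog. The ages given were 0.5 to 5 years for 4 of the early dogs and 1.5 to 9 years for the 5 late dogs.

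T cells respond fully only when signaling of the antigen receptor is joined by a costimulatory signal. CD28 delivers this signal when it binds CD80 or CD86 on an antigen-presenting cell, and CTLA-4 competes for both ligands with higher affinity and so restrains the response. PD-1 (the product of PDCD1), LAG-3 and TIGIT are further inhibitory receptors that appear on activated T cells, and PD-1 is engaged by PD-L1 and PD-L2 on myeloid, dendritic and other cells.

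Recovered reads per library ranged from 3132916 to 4439709 in early and from 2973125 to 3230455 in late CCH. A count of 0 allowed a normalized read count of up to 2.36 to 3.22, which corresponds to 3 reads. The share of long RNA fragments (DV200) was 64.5 to 71.2% in early and 71.2 to 75.8% in late samples. These ranges met only at 71.2%. The part of RNA quality in any difference was not tested and cannot be told apart from that of stage. The sample list of the study places early and late tumors in different RNA extraction batches, so that stage and batch cannot be told apart in any comparison below. The tissue label was checked with marker genes. Transcripts of MHC class II and its invariant chain were abundant in every library, with sums of 45679 to 81202 in early and 58721 to 90508 in late CCH. The sum of Langerhans and dendritic cell markers was 1473 to 3172 in early and 1020 to 1912 in late CCH. Among these markers, FLT3, a growth factor receptor of dendritic cells, and FCER1A, a chain of the IgE receptor, passed the test as lower in late CCH. The CD207 gene was not analysed here. Keratinocyte transcripts summed to 843 to 16365 in early and 639 to 8136 in late CCH. In bulk tissue, more cells of a type and more RNA per cell cannot be told apart, which holds for every difference given here.

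Of the 10 genes, 9 had higher mean levels in late than in early CCH and CD86 had lower ones. A gene was called with a Benjamini-Yekutieli (BY) adjusted p of at most 0.05 in limma and a log2 fold change (log2FC, late minus early) of at least 1 in size, which 2.17% of all genes tested met. Only CD274 among the 10 was called, as higher in late CCH. The median log2FC of the 10 genes was 2.24, beside -0.004 for all genes tested. It was 2.79 for the 6 receptors and 1.77 for the 4 ligands. In 4 of the 10, namely CD28, LAG3, TIGIT and CD274, every late library lay above every early library, which was so for 5.91% of all genes tested. CD86 was the single gene of the 10 whose late libraries all lay below every early library, as in 6.05% of all genes tested. All 10 had an unadjusted limma p of at most 0.05, as had 30.9% of all genes tested. With the Benjamini-Hochberg (BH) adjustment and the same fold threshold, 7 of the 10 were called higher, where 5.53% of all genes tested were. These were CD28, ICOS, LAG3, TIGIT, CD274, PDCD1LG2 and CD80. DESeq2 with the BY adjustment called 4 of them higher (CD28, LAG3, CD274 and PDCD1LG2) beside 3.87% of all genes tested. The edgeR quasi-likelihood test called 0 of the 10 beside 1.43% of all genes tested, with 9 of the 10 at an unadjusted p of at most 0.05, as were 30.3% of all genes tested. The count models edgeR and DESeq2 gave smaller log2FC values than limma for all 6 receptors and for CD274, PDCD1LG2 and CD80. The differences with their standard errors are drawn in the plot of log2FC by gene.

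**Figure D1:**
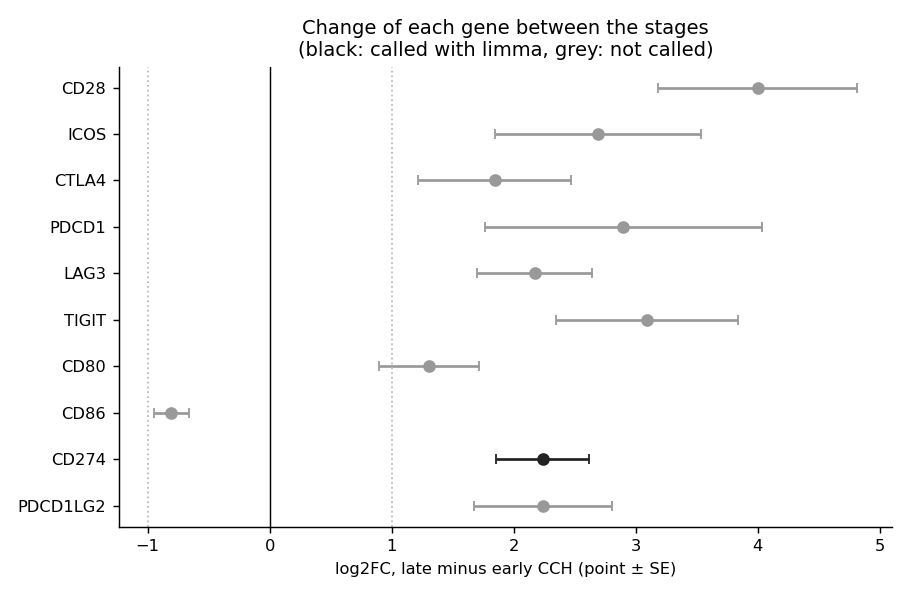
Change of each of the 10 genes between the stages. The horizontal axis gives the log2FC (late minus early CCH, log2 scale) as a point with its standard error from limma, dotted lines mark the fold threshold of 1 in either direction, and CD274, the gene called, is drawn in black. CD28 had the highest value with 4.00, and CD86 was the only gene below 0 with -0.81.

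Among the costimulatory receptors, CD28 showed the widest gap between the stages. CD28 is the main costimulatory receptor of naive T cells. Its normalized read counts were 3.81, 40.0, 65.1, 112 and 3.22 in early libraries 1 to 5 and 458, 287, 246, 488 and 405 in late libraries 1 to 5. The lowest late library was thus above the highest early one, and early libraries 1 and 5 held just 4 and 3 reads of the gene. Early libraries averaged 44.8 ± 45.7 and late libraries 377 ± 106 (SD, n = 5 each), which is 8.41 times as high. The log2FC of 4.00 ± 0.82 (SE) ranked 15th among all genes tested, and the BY-adjusted p in limma was 0.0797. CD28 was thus not called, although the exact two-sided permutation test gave 0.00794, the smallest p that 5 against 5 libraries allow. With the Wald test of DESeq2 on the recovered reads it was called, with a BY-adjusted p of 0.0267 and a log2FC of 3.08. Leaving out single libraries, limma called it in 1 of 10 fits, without early library 4 (BY-adjusted p = 0.0428), while the other BY-adjusted p-values in limma lay between 0.0741 and 0.249. The log2FC of CD28 ranged from 3.39 to 4.58 over these fits.

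ICOS, the inducible costimulator that supports helper T cells, overlapped between the stages. It held 0.952, 29.8, 132, 51.2 and 20.4 normalized read counts in early libraries 1 to 5 and 150.1, 127, 105, 227 and 214 in late libraries 1 to 5. Early library 3 lay above late libraries 2 and 3, and a single read was found in early library 1. Means were 46.9 ± 50.9 and 164 ± 53.8 (SD, n = 5 each), with a log2FC of 2.69 ± 0.85 (SE). ICOS did not pass the test with limma (BY-adjusted p = 0.491). The log2FC was 1.78 without early library 1 and 1.82 with edgeR.

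Of the inhibitory receptors, CTLA4 had the lowest mean level in late CCH, although LAG3 lay above it in only 2 of the 5 late libraries. Early libraries 1 to 5 held 13.3, 14.9, 85.9, 37.0 and 10.7 normalized read counts of CTLA4, and late libraries 1 to 5 held 20.9, 125, 97.8, 115 and 166. Late library 1 stood far below the other late libraries and within the early range, with 21 reads. The remaining 4 late libraries lay above every early library. The mean was 32.4 ± 31.7 in early and 105 ± 53.1 in late CCH (SD, n = 5 each). A log2FC of 1.84 ± 0.63 (SE) did not pass the test (limma BY-adjusted p = 0.649).

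PDCD1 was the gene with the widest spread among early tumors. No read of it was found in early library 1, which allows up to 2.86 normalized read counts, while early libraries 2 to 5 held 44.7, 241, 118 and 19.3. In late libraries 1 to 5 the values were 259.5, 279.7, 172, 119 and 402. Early library 3 lay above late libraries 3 and 4, so that the stages overlapped. Means of 84.6 ± 98.1 in early and 246 ± 109 in late CCH (SD, n = 5 each) gave a log2FC of 2.90 ± 1.13 (SE). This was not called with limma (BY-adjusted p = 1), and neither was it when limma p-values were BH-adjusted (adjusted p = 0.103). Because early library 1 was at 0, the fitted log2FC depends on the value added before taking logarithms and ranged from 1.66 (without early library 1) to 3.64 when single libraries were left out. It was 1.56 with edgeR and 1.54 with DESeq2.

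LAG3, an inhibitory receptor that binds MHC class II, separated the stages. Its normalized read counts were 13.3, 30.7, 50.7, 49.6 and 7.51 in early libraries 1 to 5, against 105, 154, 84.3, 94.1 and 138 in late libraries 1 to 5. No late library reached down to the early range. With means of 30.4 ± 19.97 and 115 ± 29.8 (SD, n = 5 each), the log2FC was 2.17 ± 0.47 (SE) and the BY-adjusted p in limma was 0.102, so LAG3 was not called. DESeq2 called it with a BY-adjusted p of 0.0031.

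TIGIT, a receptor that competes with CD226 for ligands of the nectin family, also separated the stages. Early libraries 1 to 5 had 2.86, 16.7, 136, 55.9 and 10.7 normalized read counts and late libraries 1 to 5 had 256, 162, 146, 199 and 226. Early library 3 came close to late library 3, and no values crossed. The means were 44.4 ± 55.0 and 198 ± 44.9 (SD, n = 5 each), and the log2FC was 3.09 ± 0.74 (SE). TIGIT was not called with all libraries (limma BY-adjusted p = 0.169), and its log2FC with edgeR was 2.16. Leaving out single libraries, it was called in 1 of 10 fits, without early library 3 (limma BY-adjusted p = 0.0346), and the BY-adjusted p in limma reached up to 0.439. The log2FC of these fits lay between 2.45 and 3.73.

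The ligands of CD28 and CTLA-4 differed in opposite directions. CD80, which activated antigen-presenting cells display, held 29.5, 93.0, 131, 176 and 134 normalized read counts in early libraries 1 to 5 and 192, 294, 279, 328 and 161 in late libraries 1 to 5. Late library 5 lay below early library 4, and the other late libraries were above the early range. Early libraries averaged 113 ± 55.2 and late libraries 251 ± 71.2 (SD, n = 5 each). The log2FC of 1.31 ± 0.41 (SE) was not called (limma BY-adjusted p = 0.483).

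CD86, the more widely displayed ligand of the pair, was by far the most abundant of the 10 genes. Early libraries 1 to 5 held 1829, 2453, 1895, 2582 and 2099 normalized read counts, and late libraries 1 to 5 held 1405, 1229, 1234, 1028 and 1289. Every late library lay below every early library. The early mean of 2171 ± 334 was 1.76 times the late mean of 1237 ± 137 (SD, n = 5 each). The log2FC of -0.81 ± 0.14 (SE) had a BY-adjusted p of 0.046 in limma, as 2.44% of all genes tested were at or below 0.05, but it was under the fold threshold and CD86 was not called. Without any single library the BY-adjusted p of CD86 lay between 0.0624 and 0.149 and its log2FC between -0.86 and -0.74.

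CD274 encodes PD-L1, the ligand of PD-1 that interferon gamma is known to induce. It rose in late CCH. The normalized read counts were 30.5, 141, 78.7, 29.9 and 51.5 in early libraries 1 to 5 and 308, 217, 281, 195 and 359 in late libraries 1 to 5. Even the lowest late library, library 4, was above the highest early library, library 2. The mean rose from 66.4 ± 46.4 to 272 ± 66.8 (SD, n = 5 each), 4.10 times as high. The log2FC was 2.235 with an SE of 0.38 (limma BY-adjusted p = 0.0419, exact two-sided permutation p = 0.00794). The edgeR quasi-likelihood test gave a BY-adjusted p of 0.0753 and DESeq2 one of 0.000174. CD274 was still called by limma without early library 2 or early library 3, with BY-adjusted p of 0.0122 and 0.0478. Without early library 1, 4 or 5 or any of the late libraries it was not, with BY-adjusted p of 0.0641 to 0.122 in limma, while the log2FC stayed between 2.02 and 2.57 over all these fits.

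PDCD1LG2 encodes PD-L2, a second ligand of PD-1 found mainly on dendritic cells and macrophages. Its values in early libraries 1 to 5 were 11.4, 137, 74.2, 19.7 and 55.8 normalized read counts, and in late libraries 1 to 5 they were 249.6, 131, 165, 372 and 171. Late library 2 lay just under early library 2, and the other 4 late libraries were above the early range. Means were 59.6 ± 50.2 and 218 ± 96.6 (SD, n = 5 each). Like its neighbor it had a log2FC of 2.24 (SE 0.57), but with a BY-adjusted p of 0.204 in limma it was not called. DESeq2 called it with a BY-adjusted p of 0.046.

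**Figure D2:**
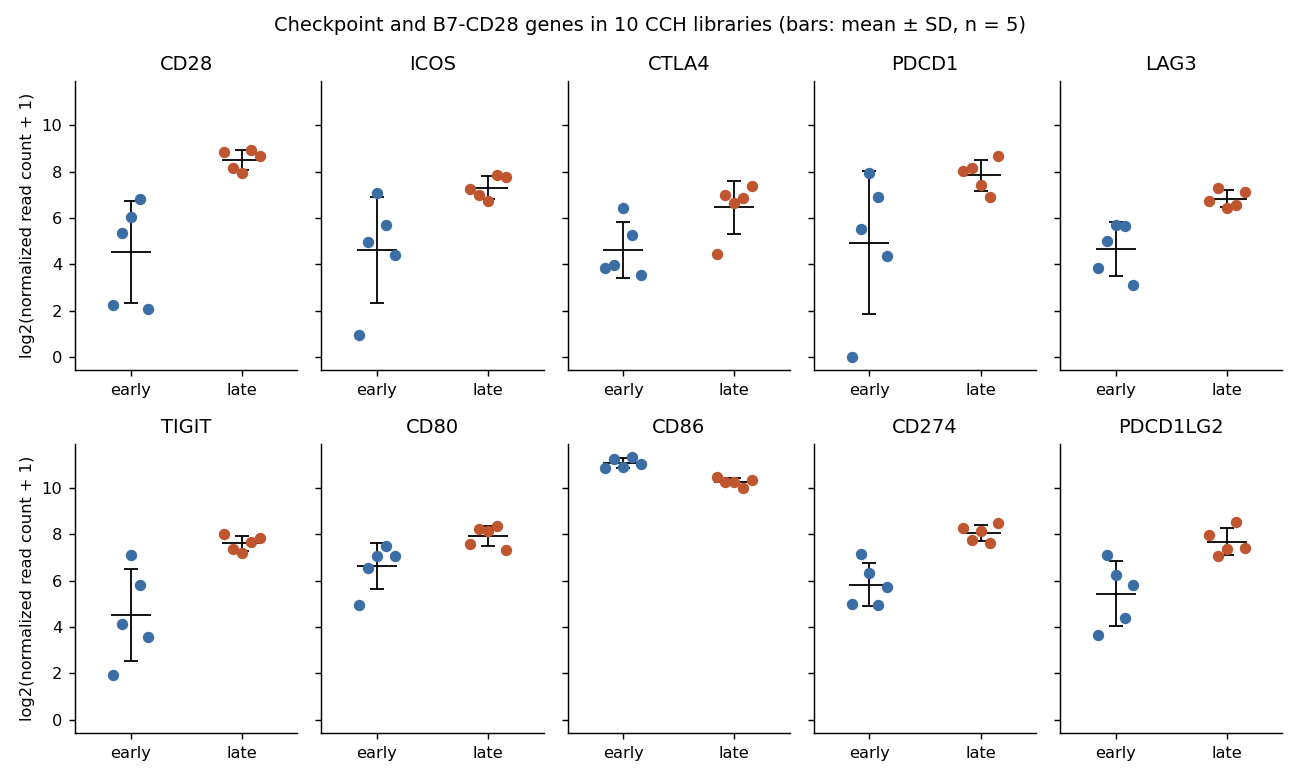
Level of the 10 genes in each library. The vertical axis is log2(normalized read count + 1), points are libraries (blue early, orange late) and bars give the mean ± SD with n = 5 per stage. Early points of the receptors scatter widely, with PDCD1 from 0 to 241 normalized read counts, whereas CD86 stays between 1829 and 2582 in early and between 1028 and 1405 in late CCH.

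The order of the genes by mean log2 level placed CD28 differently in the stages. In early CCH the order from high to low was CD86, CD80, CD274, PDCD1LG2, PDCD1, LAG3, ICOS, CTLA4, TIGIT and CD28. In late CCH it was CD86, CD28, CD274, CD80, PDCD1, PDCD1LG2, TIGIT, ICOS, LAG3 and CTLA4. CD28 was thus last on this scale in early CCH, with 4.51 beside 4.52 for TIGIT, and next to CD86 in late CCH. By mean normalized read count, early CD28 (44.8) lay above TIGIT (44.4), CTLA4 (32.4) and LAG3 (30.4). Apart from CD86 and the gene next to it, the ranges of all neighbors in either order overlapped. Differences between neighbors within a library were not tested, so that the order is a ranking of means only. CD86 made up 65.6 to 94.5% of the summed normalized read counts of the 10 genes in early and 32.5 to 43.9% in late CCH. The 6 receptors together summed to between 34.3 and 710 in early and between 851 and 1551 in late CCH.

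On the log2 scale, early tumors varied more than late tumors in all of the 10 genes. On normalized read counts the direction turned, and the SD was larger in late CCH for 8 of the 10. The SD of the log2 level was larger among early than among late libraries in 10 of 10, where this was so for 51.5% of all genes tested. It was 3.07 against 0.68 for PDCD1, 2.20 against 0.43 for CD28, 2.27 against 0.48 for ICOS and 2.00 against 0.33 for TIGIT. CTLA4 had nearly equal SDs of 1.21 and 1.15, and CD86 had the smallest, with 0.22 and 0.16. The median over all genes tested was 0.42 in early and 0.41 in late CCH. Early library 3 had the highest early level of CTLA4, PDCD1, ICOS, LAG3 and TIGIT, and early library 4 that of CD28. The highest early levels of CD274 and PDCD1LG2 were instead both in early library 2.

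Transcripts of T cells differed between the same libraries. The T-cell reference was the mean log2(value + 1) of CD3D, CD3E, CD3G, CD247, CD2 and CD5, which encode chains of the antigen receptor complex and pan-T-cell surface proteins. It was 2.64, 6.56, 8.06, 7.53 and 5.00 in early libraries 1 to 5 and 9.35, 8.89, 8.98, 9.39 and 9.10 in late libraries 1 to 5, a difference of 3.18 ± 0.98 (SE, exact two-sided permutation p = 0.00794). Early library 1, with the lowest reference, also had the lowest level of PDCD1, ICOS and TIGIT, and early library 3, with the highest reference among early libraries, was highest for 5 of the 6 receptors. None of the 6 reference genes was called with limma at the BY threshold, beside 1.06% of all genes tested called higher. With the BH adjustment all 6 were called higher, beside 5.53% of all genes tested. Summed markers of cytotoxic lymphocytes were 147 to 2686 in early and 2987 to 8017 in late CCH, and KLRK1, the gene of the activating receptor NKG2D, was called higher among them. B-cell markers summed to 483 to 727 in early and 632 to 3198 in late CCH. Of these 7 markers, 6 had a log2FC above 0, with a list median of 2.93. CD22 had -0.28, with means of 480 ± 86.8 in early and 443 ± 267 in late CCH (SD, n = 5 each), and held most of the early sum.

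Relative to this T-cell reference in the same library, none of the 6 receptors differed between the stages at an exact two-sided permutation p of 0.05. The differences, late minus early on the log2 scale, were 0.82 ± 0.47 for CD28, -0.49 ± 0.29 for ICOS, -1.34 ± 0.88 for CTLA4, -0.29 ± 0.56 for PDCD1, -1.01 ± 0.68 for LAG3 and -0.09 ± 0.32 for TIGIT (SE). Their exact permutation p-values were 0.127, 0.135, 0.167, 0.587, 0.103 and 0.802, with 6 tests made. Without early library 1, CD28 exceeded the reference by 1.08 log2 units more in late than in early CCH (exact permutation p = 0.0476), and without early library 5 the difference was 0.45 (exact permutation p = 0.254). LAG3 differed by -1.19 without late library 2 (exact permutation p = 0.0317) and by -0.39 without early library 1 (exact permutation p = 0.206). The difference of CTLA4 was -0.71 without early library 1 and -0.79 without late library 1, and that of ICOS -0.30 without early library 5. PDCD1 and TIGIT stayed within 0.7 log2 units of 0 without any single library. TIGIT turned to 0.092 without early library 1 and to 0.024 without early library 3, and PDCD1 turned to 0.0063 without late library 4, so that the direction of both depended on single libraries. In early library 1 the T-cell reference itself rested on few reads, with summed normalized read counts of 54.3.

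**Figure D3:**
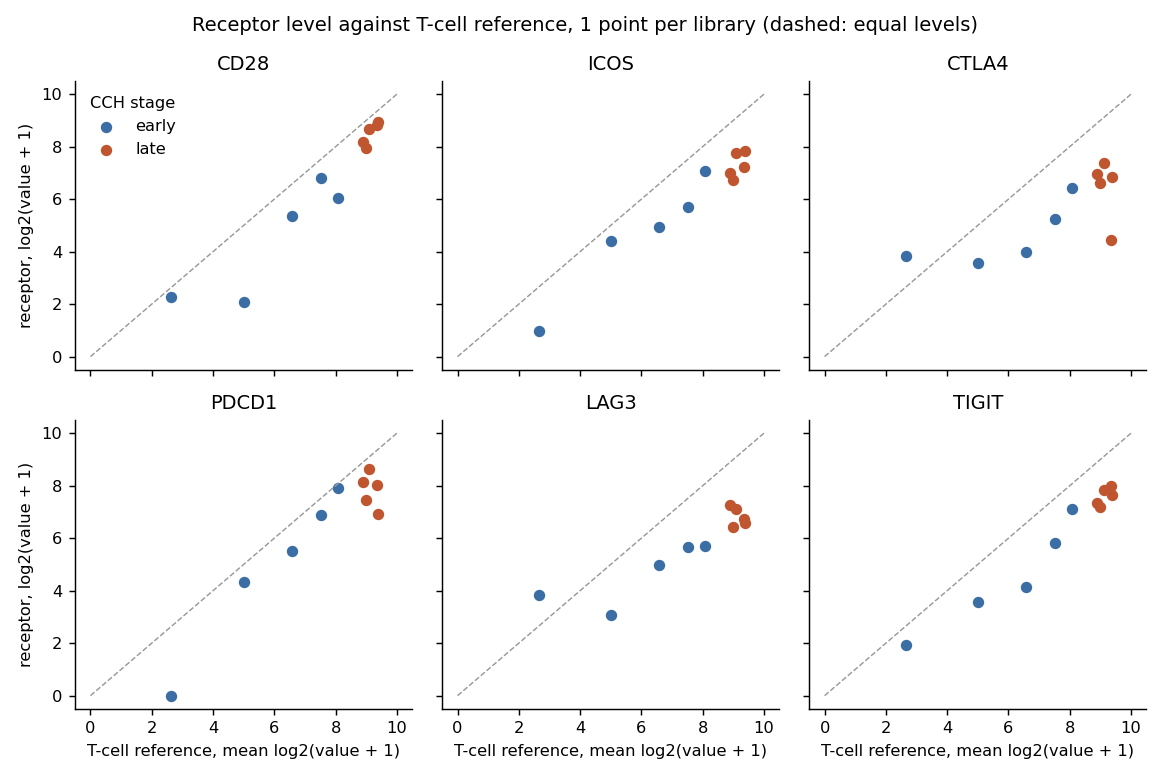
Receptors beside T-cell transcripts. Each panel sets log2(value + 1) of a receptor (vertical) against the T-cell reference, the mean log2(value + 1) of 6 T-cell genes (horizontal), with 1 point per library, blue for early and orange for late CCH, and a dashed line at equal levels. In late CCH the reference lies between 8.89 and 9.39 in all 5 libraries, while CTLA4 in late library 1 sits at 4.45 below the other late points.

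The ligands were set against the mean log2 level of the 9 MHC class II genes in the table. This reference is not tied to a single cell type, so that values relative to it are not levels per antigen-presenting cell. It differed by 0.53 ± 0.20 (SE, exact two-sided permutation p = 0.0159) between the stages. Most of this difference came from DLA-DOA, a low-level gene with a log2FC of 3.47 ± 0.66 (SE, limma BY-adjusted p = 0.06, not called). The mean of the other 8 genes differed by 0.16 ± 0.18 (SE, exact permutation p = 0.365), and the median log2FC of the 9 was 0.16. Relative to the 9 genes, CD274 was higher in late CCH by 1.71 ± 0.48 (SE, exact permutation p = 0.0238). PDCD1LG2 was higher by 1.71 ± 0.64 (SE, exact permutation p = 0.0397) and CD80 by 0.78 ± 0.35 (SE, exact permutation p = 0.0317). CD86 differed by -1.33 ± 0.23 (SE, exact permutation p = 0.00794), with early values of 0.30 to 0.97 and late values of -1.11 to -0.30 that did not overlap. All 4 tests made were thus at or below 0.05. The values for CD274 and CD86 stayed there whichever library was left out. PDCD1LG2 moved to between 0.0635 and 0.0794 without early library 1, 3, 4 or 5 or late library 1, 4 or 5 (exact permutation p), and CD80 to 0.0635 without early library 1, 2, 3 or 5 or late library 2 or 4 (exact permutation p). Without DLA-DOA in the reference, a choice made after seeing the data, the differences were 2.08 for CD274, 2.08 for PDCD1LG2, 1.15 for CD80 and -0.96 for CD86 (exact permutation p = 0.0159, 0.0317, 0.0159 and 0.00794). Against a reference of 9 macrophage genes, CD80 differed by 0.40 (exact permutation p = 0.571). The other 3 ligands stayed at or below 0.05 there, with 1.33 for CD274, 1.33 for PDCD1LG2 and -1.72 for CD86 (exact permutation p = 0.00794, 0.0238 and 0.00794). The summed macrophage markers were 2663 to 11749 in early and 6253 to 11872 in late CCH, and those of mature dendritic cells 237 to 1269 and 1311 to 2707. Whether the number of these cells or their transcripts per cell moved with the ligands cannot be told apart.

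Within a library, the balance of the ligands CD86 and CD80 separated the stages. The log2 difference CD86 minus CD80 was 4.46 ± 0.89 in early and 2.34 ± 0.57 in late CCH (SD, n = 5 each), a change of -2.11 ± 0.47 (SE, exact two-sided permutation p = 0.00794). In reads, CD80 made up 1.59, 3.65, 6.47, 6.40 and 6.01% of the reads of both genes in early libraries 1 to 5. In late libraries 1 to 5 the share was 12.0, 19.3, 18.4, 24.2 and 11.1%. The interval nearest to the other stage was 5.53 to 7.57% in early library 3 and 9.52 to 12.8% in late library 5 (95% Wilson intervals, counting error only). These intervals did not overlap, but they take each read as a separate molecule, and reads can be copies of 1 molecule. CD86 was nevertheless the more abundant of both in every library.

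**Figure D4:**
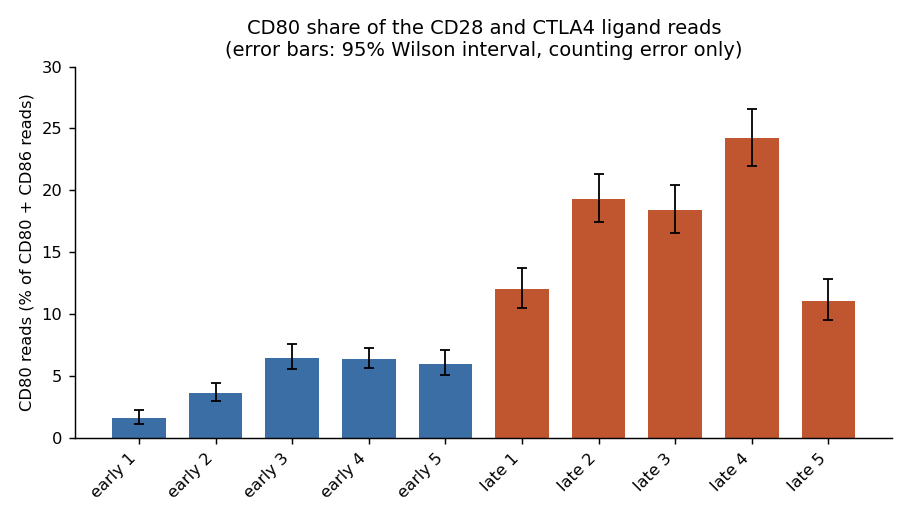
Share of CD80 among the reads of CD80 and CD86 in each library. The vertical axis gives percent of reads and error bars are 95% Wilson intervals that cover counting error only, with early libraries in blue and late libraries in orange. All early shares lie between 1.59 and 6.47% and all late shares between 11.1 and 24.2%.

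The remaining pairs within a library overlapped between the stages. CTLA4 minus CD28, the inhibitory and the stimulating receptor of the same ligands, was 0.10 ± 1.51 in early and -2.06 ± 1.35 in late CCH (SD, n = 5 each), a change of -2.16 ± 0.91 (SE, exact two-sided permutation p = 0.0794). CTLA4 made up 24.9 to 77.8% of the reads of both in early and 4.36 to 30.3% in late CCH. Early libraries 1 and 5 held just 18 and 13 reads of both genes together, so that their shares of 77.8 and 76.9% have 95% Wilson intervals of 54.8 to 91.0% and 49.7 to 91.8%. ICOS minus CD28 changed from 0.10 to -1.20 (exact permutation p = 0.103), a change of -1.31 that was -1.66 without early library 1 (exact permutation p = 0.0476) and -0.75 without early library 5 (exact permutation p = 0.206). PDCD1LG2 minus CD274 was -0.39 in both stages, with an interval of 1 SE of 0.44 around a difference of 0.002 (exact permutation p = 1). PDCD1LG2 held 27.3 to 52.0% of the reads of both PD-1 ligands in early and 32.3 to 65.6% in late CCH. In all, 4 such pairs were tested.

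Several of these genes are neighbors on the chromosome. In the order of protein-coding genes of the dog assembly UU_Cfam_GSD_1.0, CD28, CTLA4 and ICOS follow each other directly. CD274 lies next to PDCD1LG2 in this order, and LAG3 lies next to CD4. The log2FC values in these clusters were 4.00, 1.84 and 2.69 for CD28, CTLA4 and ICOS. For the PD-1 ligands CD274 and PDCD1LG2 they were 2.235 and 2.24.

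Genes whose pattern over the 10 libraries was most like that of each member were sought among all genes tested by Pearson's r of log2 values with the stage mean removed. These r values are the highest of 12397 and describe only these libraries, which share the stage, the depth and the cell mix. The early SD of the log2 level exceeded the late one in all 10 members, so that early libraries weigh more in r. This holds most for TIGIT, CD28, ICOS and PDCD1. Early library 1 held 3, 4, 1 and 0 reads of these genes. The 3 genes most like PDCD1 were CD27, CD3D and CD3E (r = 0.97, 0.97 and 0.96), those most like ICOS were CD6, CD27 and CD3D (0.98 each), and those most like TIGIT were THEMIS, ZAP70 and NLRC3 (0.99, 0.97 and 0.97). CD3D and CD3E are chains of the T-cell receptor complex, ZAP70 is its kinase, and THEMIS, CD6 and CD27 are T-cell signaling or surface proteins. For CD28 they were MYB, TNIK and ETS1 (r = 0.98, 0.96 and 0.95). For LAG3 they were CNKSR3, SYTL3 and PSME1 (r = 0.95, 0.94 and 0.94), and for CTLA4 GFRA2, TAF2 and AP4E1 (r = 0.95, 0.95 and 0.93).

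The ligands had other genes beside them. CD274 was most like CCL8, SCIMP and C1QA (r = 0.93, 0.92 and 0.91) and PDCD1LG2 most like DMXL2, EVI2B and C1QB (r = 0.97, 0.94 and 0.94). CCL8 is a chemokine, and C1QA and C1QB are chains of complement C1q, which macrophages make. CD80 was most like TNFSF10, STARD13 and GALNTL5 (r = 0.95, 0.94 and 0.93), where TNFSF10 encodes the death ligand TRAIL. CD86 was most like NCF4, AGRP and RAB5C (r = 0.92 each), of which NCF4 encodes a subunit of the phagocyte NADPH oxidase.

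The rest of the pathway was described with 6 lists of 82 genes in all, of which 76 were tested. Limma called 4 of them higher and 1 lower, beside 1.06% and 1.11% of all genes tested. With the BH adjustment it was 27 higher and 3 lower, beside 5.53% and 3.52% of all genes tested. The median log2FC of the 76 genes was 0.46. Of the 76, 50 had a log2FC above 0 and 26 had one below 0, whereas 49.8% of all genes tested were above 0.

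Other members of the B7-CD28 family and their partners showed no call among 8 tested genes. Their median log2FC was 0.17, with CD160, a receptor of HVEM, highest at 2.40 ± 0.66 (limma BY-adjusted p = 0.293) and BTLA, an inhibitory receptor of the same ligand, lowest at -1.35. The nectin and PVR axis of TIGIT had no call among 7 tested genes either, with a median of 0.19. There PVRIG, an inhibitory receptor of NECTIN2, was highest with 52.8 ± 58.7 in early and 311 ± 117 in late CCH (log2FC 3.82 ± 1.04, limma BY-adjusted p = 0.281), and NECTIN1 was lowest at -0.70.

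Among 12 tested genes of other inhibitory receptors and ligands, LAIR1 was called. LAIR1, an inhibitory receptor for collagen on leukocytes, rose from 52.3 ± 24.4 to 240 ± 80.8 normalized read counts (SD, n = 5 each; log2FC 2.25 ± 0.36, limma BY-adjusted p = 0.0312). The median of this list was -0.34, the only one of the 6 lists below 0. The CD200R1 symbol was not analysed here, and HAVCR2 (the gene of TIM-3) and FGL1, a ligand of LAG-3, stayed below the filter. HAVCR2 had 2 reads over all early and 2 over all late libraries. The study lists it as missing from the QuantSeq 3′ data of its perianal tumors. Whether its low count here reflects expression or detection was not tested.

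Signaling genes were called in both directions. Of 19 genes of CD28 and ICOS signaling, PIK3CD, the leukocyte catalytic subunit p110 delta of phosphoinositide 3-kinase, rose from 312 ± 49.8 to 641 ± 148 (log2FC 1.02 ± 0.18, limma BY-adjusted p = 0.0436). PIK3CG, the subunit p110 gamma that acts downstream of G protein-coupled receptors, fell from 960 ± 215 to 350.3 ± 56.9 (log2FC -1.44 ± 0.17, limma BY-adjusted p = 0.00812). The median of this list was 0.67. Of 13 genes of inhibitory signaling and of CTLA-4 or PD-L1 trafficking, DGKZ, a diacylglycerol kinase that dampens signals of the T-cell receptor, rose from 117 ± 33.3 to 323 ± 44.8 (log2FC 1.50 ± 0.21, limma BY-adjusted p = 0.0166). The median there was 0.44. Each mean in this paragraph is given with its SD over 5 libraries.

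Of 17 transcription factors linked to checkpoint expression, EOMES was called. EOMES, a T-box factor of cytotoxic and memory T cells, rose from 79.4 ± 64.2 to 612 ± 141 normalized read counts (SD, n = 5 each; log2FC 3.42 ± 0.56, limma BY-adjusted p = 0.0331). The list had the highest median of the 6 with 1.19. With the BH adjustment, 9 of its 17 genes were called higher, beside 5.53% of all genes tested. When single libraries were left out in turn, PIK3CG was called in 10 of 10 fits, DGKZ in 6, LAIR1 in 4, EOMES in 3 and PIK3CD in 1. Over these fits the BY-adjusted limma p reached at most 0.0336 for PIK3CG, 0.0638 for DGKZ, 0.095 for LAIR1, 0.122 for EOMES and 0.146 for PIK3CD.

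**Figure D5:**
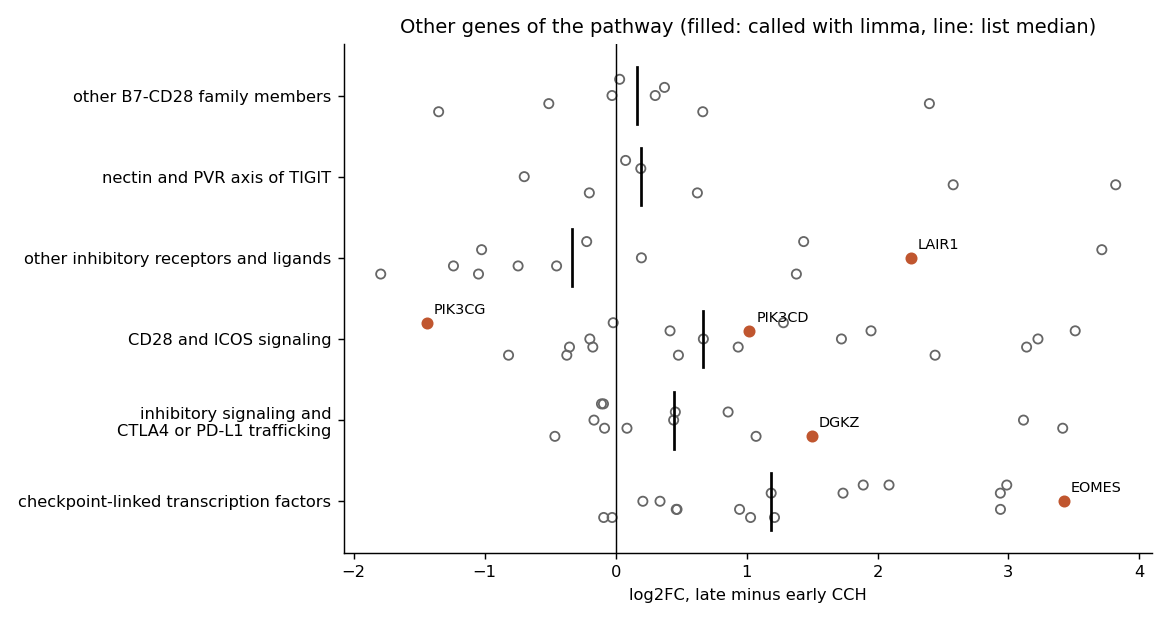
Log2FC of the 76 tested genes in the 6 lists around the checkpoint and B7-CD28 genes. The horizontal axis is the log2FC (late minus early CCH), each circle is a gene, filled circles with names are the 5 genes called with limma, and a vertical bar marks the median of a list. Medians range from -0.34 in other inhibitory receptors and ligands to 1.19 in the transcription factors.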

How the data were processed

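QuantSeq 3′ RNA-Seq of 10 FFPE tumors was analysed. Per the submitters' processing notes and the methods, the authors trimmed reads with cutadapt, aligned them with STAR to CanFam3.1 and counted them per gene with featureCounts, extending genes at their downstream end where reads stayed unassigned. Tool versions are not given in the sources used here. The deposited values are a signal per gene and library, namely read counts that the authors divided by the DESeq2 size factor of the library. All values of the 10 columns were whole multiples of 1 read (tolerance 0.01 reads), so reads were recovered for count tests. A further 11 columns match no sample and were not used. Column names give the stage but not the sample, so library numbers only name libraries and labels such as DV200 were not linked to single libraries.

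Genes had to reach a value of 10 in 5 or more libraries, and were then fitted with limma 3.58.1 (R 4.3.3, mean-variance trend) on log2(value + 1), without covariates. Fold changes are on the log2(value + 1) scale. They shrink where a whole group is low. Among the members they exceed the log2 ratio of means most for receptors with single early libraries near 0 (PDCD1, ICOS, CD28 and TIGIT). The BY adjustment and both thresholds are those of the study, and the adjustment ran over all 12397 genes. The test of the study was DESeq2, which is an alternative here. The test was checked on simulated data. Single values were compared with exact two-sided permutation tests, unadjusted, over 252 assignments with all 10 libraries. With a library left out the assignments are fewer, and the smallest p they allow is larger. Replicates are tumors of different dogs. Wilson intervals and the floor of 3 reads cover counting error only, since no molecular identifiers were used and reads can be copies of 1 molecule.

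Alternatives were a pseudocount of 0.5 or 5, no filter, TMM or column total scaling, edgeR 4.0.16, DESeq2 1.42.0, the BH adjustment, no fold threshold, other reference genes and leaving out each library. Members and lists were chosen with earlier results of these data known. All 10 members are named. Of a pathway list, the genes called are named (up to 3 in each direction), or else the highest and the lowest log2FC. Of a marker list, the highest and lowest could be named. For likeness, the 3 highest r were named, leaving out symbols that start with LOC.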

Additional observations from a re-analysis of the deposited data

Results flagged for a closer look

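In 48 sets of 5 libraries of a stage (log2 levels of the members, their values relative to a reference and the pair differences), 4 held a library whose gap to the next exceeded the critical value of Dixon's test, where chance gives about 2.4. Of these, 3 concern CTLA4 in late library 1. Its log2 level was 4.45 there, and the next lowest late library had 6.63. Relative to the T-cell reference it was -4.90, and the next was -2.54. The difference CTLA4 minus CD28 was -4.39, and the next was -2.08. The remaining case is LAG3 relative to the T-cell reference in early library 1, which at 1.20 was the highest of the early libraries, the next being -1.58. That library held 14 reads of LAG3.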

How the results depend on the processing

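The log2FC of the 10 members kept its sign in all 190 values under other settings and its side of the threshold in 168, but the size moved. With edgeR it was 1.56 instead of 2.90 for PDCD1, 1.82 instead of 2.69 for ICOS, 2.16 instead of 3.09 for TIGIT and 3.08 instead of 4.00 for CD28. The count of members called higher was 1 with all libraries and the settings above, 2 with a pseudocount of 5, 0 with edgeR, 4 with DESeq2, 7 with the BH adjustment and 0 to 2 when single libraries were left out. Called lower were 0, and 1 (CD86) without the fold threshold. The log2FC of CD274 lay between 2.02 and 2.57 and its adjusted p between 0.000174 and 0.122. Pathway genes called higher numbered 4, against 2 with edgeR, 16 with DESeq2, 27 with BH and 0 to 5 without single libraries, and those called lower 1, against 2 with DESeq2 and 3 with BH. Marker genes, for which the alternatives were chosen after seeing the data, were called higher in 1 case, against 3 with a pseudocount of 5, 0 with edgeR, 14 with DESeq2, 23 with BH and 0 to 5 without single libraries, and lower in 2, against 1 with edgeR and 0 to 1 without single libraries. Over all genes, 269 calls compare with 177 by edgeR, 810 by DESeq2, 200 without the filter (22072 genes tested), 1121 by BH and 49 to 260 without single libraries. Scaling by column totals gave 169 higher and 95 lower calls instead of 131 and 138 and moved the median log2FC of all genes to 0.08.

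Receptors with an exact permutation p of at most 0.05 relative to the T-cell reference numbered 0, or 1 with a pseudocount of 5 (ICOS, p = 0.0476) and 0 to 1 without single libraries. Of the ligands relative to MHC class II it was 4, also without DLA-DOA, and 2 to 4 without single libraries. Of the pairs it was 1, or 2 with a pseudocount of 5 and 1 to 2 without single libraries. Directions turned for TIGIT (-0.34 to 0.092 without single libraries) and PDCD1 (-0.69 to 0.0063) relative to the T-cell reference, and for PDCD1LG2 minus CD274 (-0.052 with a pseudocount of 5, -0.33 to 0.17 without single libraries). The cause was not tested. No paired analysis was possible because replicate numbers are not part of the column names and the stages come from different dogs. Receptors with few reads in early libraries 1 and 5, such as CD28 with 4 and 3, carry a wide counting error, although the totals of these libraries are not below the late range.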
